A study of Mus musculus with 10 samples.

Results

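The genes described here make, move or spend nicotinamide adenine dinucleotide (NAD) and are 10 of the 78298 genes in the deposited table. They were taken by symbol, through their Ensembl identifiers in the GENCODE annotation of GRCm39. The rule uses no measured value, although the set was put together with earlier results of these data known. Nmrk1, Nmrk2, Nampt, Nmnat1 and Nmnat3 encode enzymes of NAD synthesis, and Slc25a51 encodes the carrier that takes NAD into mitochondria. Cd38, Parp1, Sirt1 and Sirt3 encode enzymes that consume NAD. Transcripts were measured by bulk RNA sequencing of hearts from female mice, labelled as on a C57BL/6J background in both groups, 72 h after a single 30 mg/kg dose of doxorubicin given intraperitoneally. The 2 groups were 5 wild-type libraries and 5 p38delta knockout libraries, the knockout being a germline deletion of Mapk13, the gene of the stress-activated kinase p38δ. Doxorubicin is an anthracycline chemotherapy drug that damages heart muscle. Every mouse of both groups was given it, so no untreated level of any gene is known here. The comparison asks which of these transcripts differ with genotype after the drug.

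NAD carries electrons between the reactions of energy metabolism and is split by enzymes that use its ADP-ribose part, so cells keep remaking it. Most is recycled from nicotinamide, which NAMPT turns into nicotinamide mononucleotide, and nicotinamide riboside enters by the kinases NMRK1 and NMRK2. The NMNAT enzymes then complete NAD in the nucleus (NMNAT1) or the mitochondrion (NMNAT3), CD38 and PARP1 split it, and sirtuins use it to remove acyl groups from proteins. Nmrk2 is known as a muscle-enriched gene that is induced in stressed hearts.

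Nmrk2 had the greatest difference between the groups among the 10 genes. It lies on the minus strand of chromosome 10, and the 2442 bases upstream of it separate it from Atcay, which lies on the same strand and is described with it below. The 233 bases directly upstream of its GENCODE start, chr10:81037889-81038121 (GRCm39, minus strand), are shown 5′ to 3′ because they are the promoter side of that gap. They come from the RefSeq promoter window of GRCm38.p6, whose sequence was found unchanged in GRCm39.
Nmrk2 upstream: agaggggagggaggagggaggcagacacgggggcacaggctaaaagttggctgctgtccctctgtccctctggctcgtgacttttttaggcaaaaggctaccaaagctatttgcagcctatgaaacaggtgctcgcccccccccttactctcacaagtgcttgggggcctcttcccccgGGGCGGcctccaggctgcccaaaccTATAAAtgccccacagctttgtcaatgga
Capitals mark the letters TATAAA, whose first base is 29 bases before the GENCODE start and 46 before the RefSeq start, and GGGCGG. Windows of 250 bases before and 50 after the RefSeq start were held for 9 of the 10 genes, in 11 windows, and were searched on both strands for 4 motifs that do not overlap in the stretch shown. TATAAA was in the Nmrk2 window alone of the 11, against 13.6% of the 32851 windows in the table. The motif GGGCGG was in 8 of the 11 (35.7% of all windows), from 7 genes, and the motif CCAAT in 4 (37.4%), from 3 genes. The 2 Nmnat1 windows overlap and hold the same match to each of these motifs. The motif CACGTG was in 2 of the 11, those of Parp1 and Sirt1 (7.15%). These matches describe letters and not sites. Slc25a51 had no window.

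Library totals ran from 21403189 to 40627138 counts. Wild-type library 1 stood apart from the other 9 libraries. Its summed level of 7 macrophage markers was 596.8 CPM (counts scaled to a common library size by TMM factors), against 136 to 208.6 elsewhere. Its 5 lung and airway markers summed to 779.8 CPM, against 70.2 in wild-type library 3 and at most 0.811 in the rest. Its 5 fast skeletal muscle markers summed to 500.6 against at most 9.70, and its 5 atrial markers to 1309 against at most 281. The 7 cardiomyocyte markers were present in every library, as the heart label says, with the lowest sum in wild-type library 1 (17650 CPM) and the highest in knockout library 4 (53210 CPM). Knockout library 4 also had 65.6 CPM of the clock gene Dbp against 6.68 to 18.8 in the other 9, a gene picked after its values were seen. Mapk13 had 292, 5, 2, 1 and 4 counts in the wild-type and 9 to 15 in the knockout libraries, so it did not check the genotype labels. Sample titles begin differently in the 2 groups, and a cohort that went with them cannot be told apart from genotype. In whole hearts, fewer cells of a type and less RNA per cell cannot be told apart.

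Nampt was the most abundant of the 10 transcripts per length in both groups. Divided by the length of all its exons, its level was 75.3 ± 14.4 CPM per kilobase (SD, n = 5) in wild-type and 65.5 ± 13.9 in knockout hearts. Slc25a51 was next at 8.91 ± 0.90 in the wild-type group, and these 2 genes kept places 1 and 2 in both groups, with no shared range. Parp1 (5.65 ± 0.62), Nmrk2 (4.74 ± 1.34), Sirt1 (4.17 ± 0.11), Nmnat1 (3.94 ± 0.64) and Cd38 (3.53 ± 0.94) followed in the wild-type group, each overlapping the next in range. Sirt3 at 1.52 ± 0.22 and Nmnat3 at 1.23 ± 0.23 also overlapped. Nmrk1 was lowest at 0.673 ± 0.060, below every library of Nmnat3.

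The order held in the knockout group except that Nmrk2 (7.21 ± 1.59) stood above Parp1 (5.72 ± 0.65), and Nmnat1 (4.27 ± 0.18) above Sirt1 (4.03 ± 0.31), both with overlapping ranges. In that group the Nmrk2 range also reached that of Slc25a51. Length matters most for Sirt3: per kilobase of its longest coding transcript its wild-type level was 8.08 instead of 1.52, place 4 instead of 8. Nampt, Slc25a51 and Nmrk1 kept places 1, 2 and 10 under either length.

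**Figure D1:**
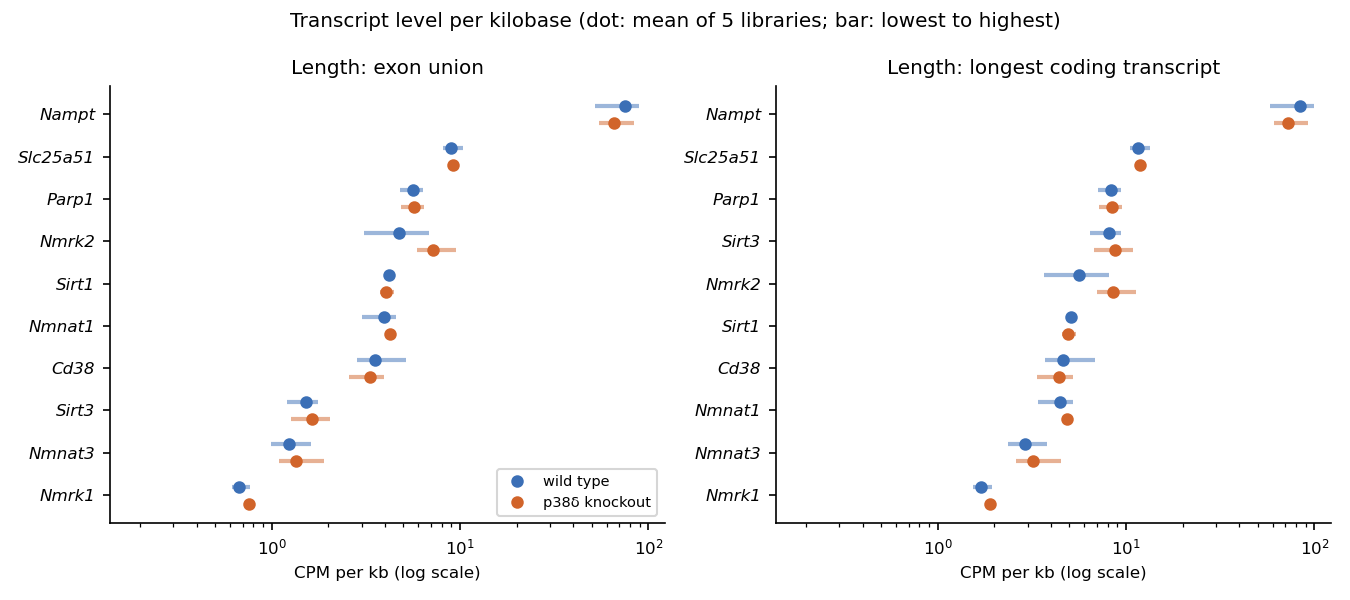
Level of each gene in CPM per kilobase on a log axis, by all exons (left) and by the longest coding transcript (right), with a dot for the mean and a bar from the lowest to the highest library of each group (n = 5 each). By all exons Nampt is highest, with group means of 75.3 and 65.5, and Nmrk1 lowest, at 0.673 and 0.756, and Sirt3 changes place between the panels.

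None of the 10 genes passed the test between genotypes. All 10 were tested, and 0 had an adjusted p under 0.05 in either direction by edgeR's quasi-likelihood test, DESeq2 or limma voom, where edgeR called 0.353% of the 16700 genes tested. Of the 10, 1 (Nmrk2, higher) had an unadjusted edgeR p under 0.05, which 6.86% of all genes had, 3.08% in that direction. The log2 fold change (knockout over wild type) was above 0 for 7 of the 10 and below 0 for 3, with a median of 0.083. Scaled by library totals alone, 5 of the 10 were above 0, with a median of -0.02 where that of all genes moved to -0.1163. Over all tested genes 46.6% were above 0 and the median was -0.0136. In none of the 10 did the groups separate without overlap, which 1.78% of all genes did, 0.88% with the knockout libraries above.

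**Figure D2:**
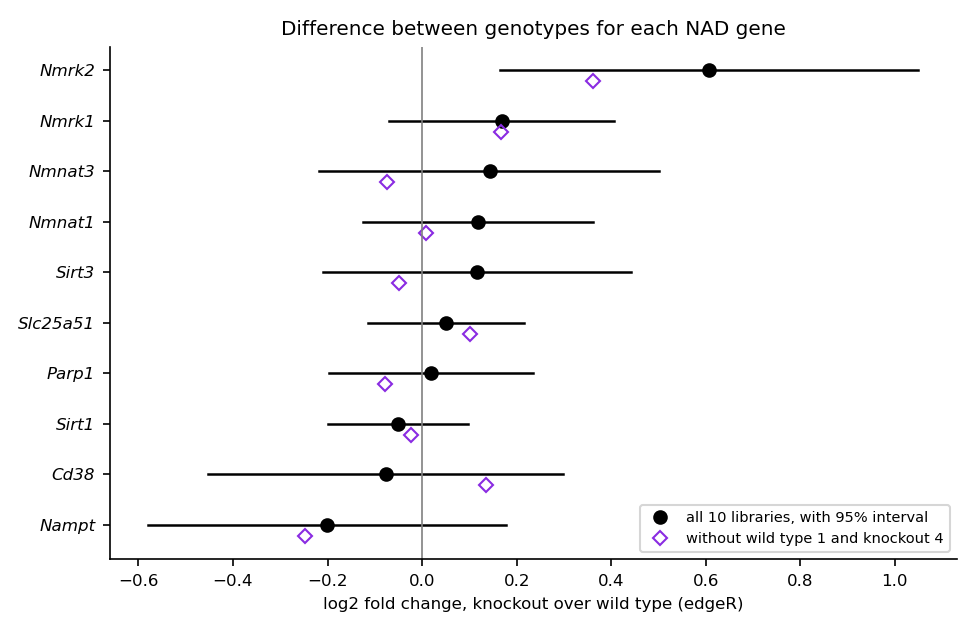
Log2 fold change, knockout over wild type, of each of the 10 genes with its 95% interval from the edgeR fit (n = 5 per group), with an open diamond for the value without wild-type library 1 and knockout library 4 and a line at 0. The interval of Nmrk2, 0.17 to 1.05, lies above 0 and the other 9 cross it, and its diamond is at 0.36.

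Nmrk2 (ENSMUSG00000004939, chromosome 10, 81033854 to 81037888, GRCm39), the muscle-enriched nicotinamide riboside kinase, was 1.52-fold higher in the knockout mean without passing the test. Wild-type libraries 1 to 5 held 6.79, 10.7, 9.57, 10.2 and 15.0 CPM, and knockout libraries 1 to 5 held 12.9, 13.9, 13.5, 21.1 and 18.0 CPM. Wild-type library 1 was the lowest and knockout library 4 the highest, and wild-type library 5 alone reached into the knockout range. The means were 10.4 ± 2.96 and 15.9 ± 3.51 CPM (SD, n = 5), a log2 fold change of 0.61 ± 0.20 (SE), interval 0.17 to 1.05, with unadjusted p = 0.0115 and adjusted p = 0.616 by edgeR. At 211 to 649 counts per library, the difference was above 0 with unadjusted p under 0.05 in each of 21 alternative analyses. The alternative that added near-identical copies could not change it, as no copy of Nmrk2 was found elsewhere. The difference was called in none of the 21, with adjusted p from 0.252 to 0.846. Without wild-type library 1 and knockout library 4 together, it was 0.36 (adjusted p = 0.592). The cardiomyocyte marker sum was also lowest and highest in those 2 libraries, at 17650 and 53210 CPM, with 7 of the 7 markers above 0. It was 26070, 27780, 40660 and 36670 CPM in wild-type libraries 2 to 5. Knockout libraries 1, 2, 3 and 5 held 25340, 23420, 33470 and 27900 CPM of these markers. The part of this sum in the Nmrk2 difference was not tested.

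Nmrk1 (ENSMUSG00000037847, chromosome 19, 18608774 to 18629831), the more widely expressed riboside kinase, had few counts, 75 to 177 per library. It was at 3.89, 4.35, 3.70, 3.61 and 3.47 CPM in the wild-type libraries and 4.05, 4.40, 4.24, 4.41 and 4.28 in the knockout libraries. The knockout libraries were close together, and only wild-type library 2 lay inside their range. Its log2 fold change was 0.17 ± 0.11 (SE), interval -0.07 to 0.41 (adjusted p = 0.766 by edgeR). Per length, Nmrk2 exceeded Nmrk1 in all 10 hearts, by 4.48 to 11.1-fold in the wild-type and 8.11 to 12.3-fold in the knockout libraries. The log2 ratio was 2.77 ± 0.47 and 3.23 ± 0.28 (SD, n = 5), and the ranges overlapped. Nmrk1 shares 262 exon bases with Ostf1 on the other strand.

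**Figure D3:**
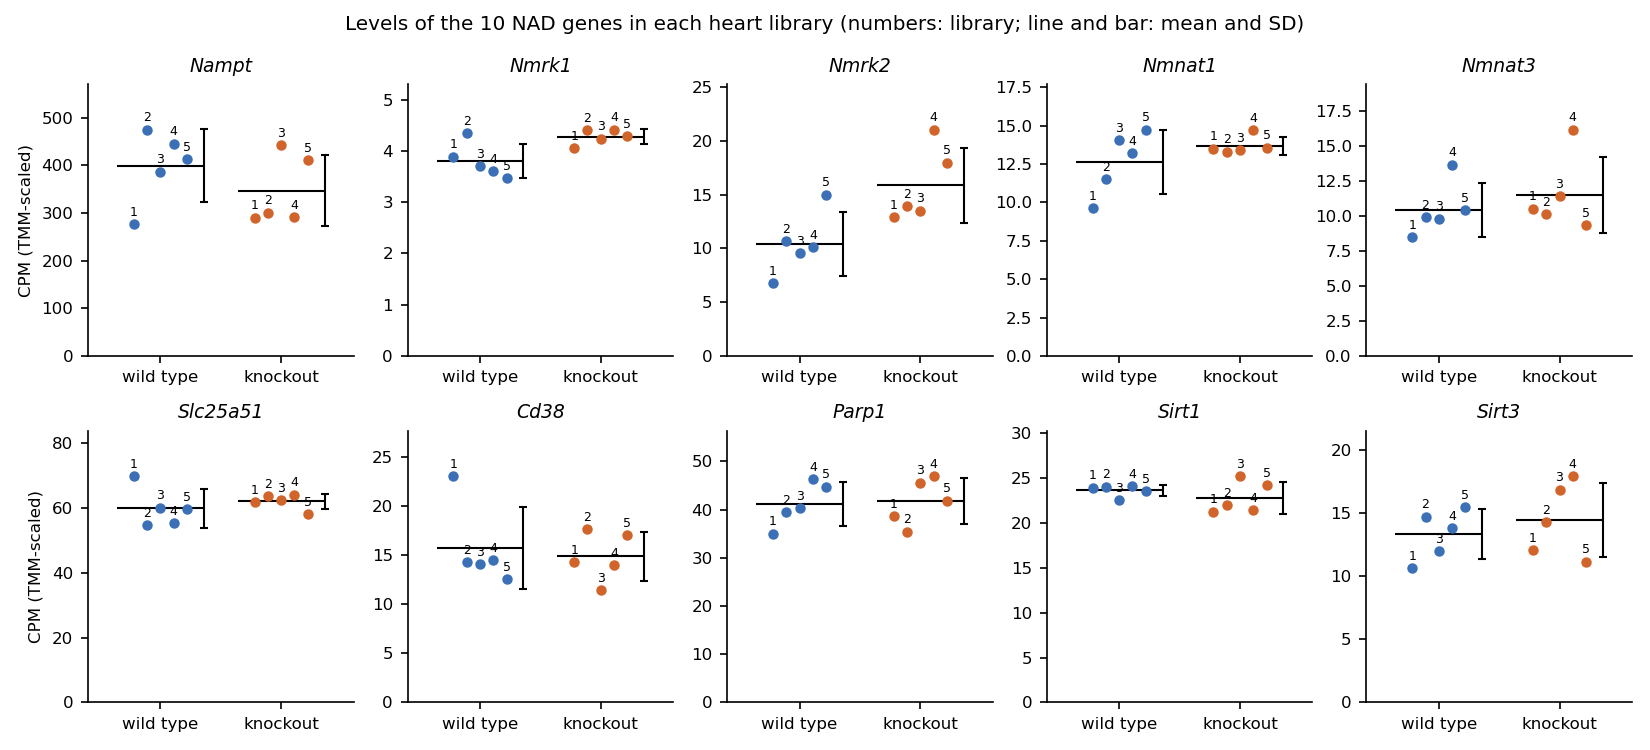
CPM of each of the 10 genes in each numbered library, a panel per gene with its own axis from 0, and the mean and SD of each group (n = 5). The groups overlap in every panel, Nmrk2 has means of 10.4 and 15.9, and in Cd38 wild-type library 1 stands at 23.1 above the others of its group.

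Nmrk2 shares its locus with 2 transcripts that were higher in all 5 knockout libraries than in any wild-type library. Both were picked for values like these, so their separation is a description. Of 9943 genes with a mean of at least 5 CPM, Atcay (ENSMUSG00000034958, chromosome 10, 81040331 to 81066670), the upstream neighbour, which encodes caytaxin, had the pattern over the 10 libraries nearest to that of Nmrk2. The root mean square difference of their standardized log2 levels was 0.248 SD, followed by Huwe1 at 0.263 and Usp22 at 0.271. Atcay stood at 7.91, 12.8, 13.4, 13.8 and 16.4 CPM in the wild-type and 18.2, 20.1, 17.7, 26.7 and 23.2 CPM in the knockout libraries. As for Nmrk2, wild-type library 1 was lowest and knockout library 4 highest. Its log2 fold change of 0.72 ± 0.18 (SE), interval 0.33 to 1.11, was not called by edgeR (adjusted p = 0.315) and was called by DESeq2 (0.0371) and by limma voom with quality weights (0.0437). DESeq2 called 0.583% of its 22127 genes.

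Atcayos (ENSMUSG00000085779, chromosome 10, 81030253 to 81046711, plus strand), a long noncoding RNA antisense to both genes and singled out after its values were seen, ranged from 88.3 to 135 CPM over the wild-type hearts and from 142.1 to 177.9 CPM over the knockout hearts. Its log2 fold change was 0.45 ± 0.12 (SE; adjusted p = 0.354 by edgeR, 0.0453 by DESeq2). It shares 531 exon bases with Nmrk2, 24.1% of the exon bases of Nmrk2, and 684 with Atcay. Over the 10 libraries Atcayos held 40825 counts and Nmrk2 4085. The strand setting of the counting is not given in the sources used here, so reads of Nmrk2 and of its antisense transcript cannot be told apart in the shared bases. Of the 8 tested genes within 50 kb, a window also set after values were seen, 7 were above 0, 0 were called by edgeR, and 3, namely Nmrk2, Atcay and Atcayos, had an unadjusted p under 0.05. The other 5 had log2 fold changes of 0.30 (Zfr2), 0.06 (Pias4), 0.05 (Eef2), 0.04 (Zbtb7a) and -0.10 (Dapk3).

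**Figure D4:**
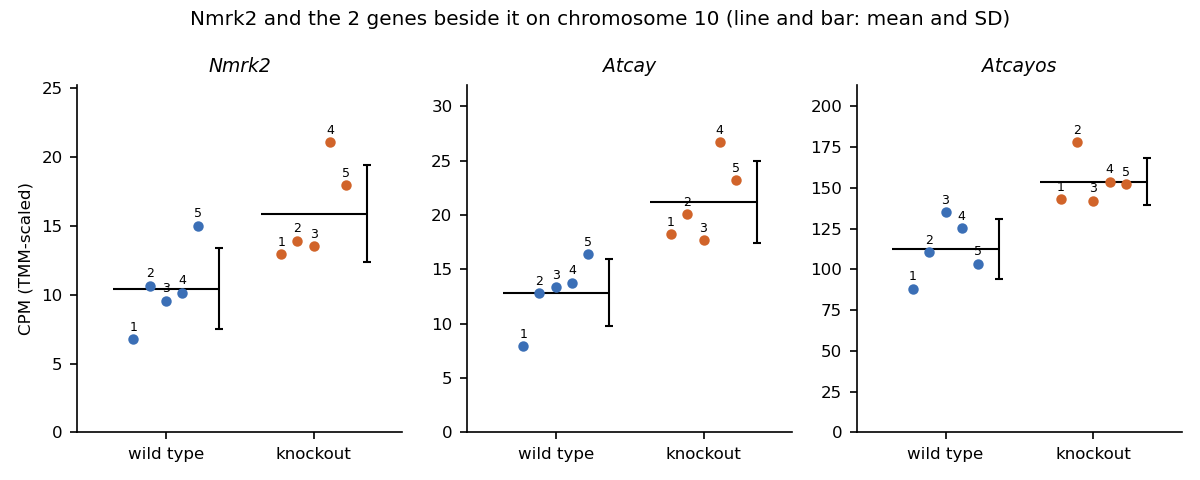
CPM of Nmrk2, its upstream neighbour Atcay and the antisense Atcayos in each library (n = 5 per group), with the mean and SD and an axis from 0 for each gene. Knockout points of Atcay (17.7 to 26.7) and Atcayos (142.1 to 177.9) lie above all wild-type points, and those of Nmrk2 overlap at wild-type library 5 (15.0).

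Nampt (ENSMUSG00000020572, chromosome 12, 32869544 to 32903368), the rate-limiting enzyme of nicotinamide salvage, varied widely within each group. Its level was 276, 475, 387, 446 and 412.5 CPM in the wild-type libraries and 290.5, 301, 443, 290.8 and 411 CPM in the knockout libraries. Wild-type library 1 was lowest on the TMM scale, but not by library totals alone. Knockout libraries 1, 2 and 4 were below the other 4 wild-type libraries while 3 and 5 were among them. The means were 399 ± 76.5 and 347 ± 73.8 CPM (SD, n = 5), a log2 fold change of -0.20 ± 0.17 (SE), interval -0.58 to 0.18 (adjusted p = 0.825 by edgeR). It stayed below 0 in all 21 alternatives, from -0.33 to -0.13, and was called in none. Its unadjusted edgeR p was 0.268 in the main fit and 0.036 with 1 surrogate variable (adjusted p = 0.671). Without wild-type library 1 it was 0.0502, with a log2 fold change of -0.30. It held 7384 to 18574 counts per library.

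Nmnat1 (ENSMUSG00000028992, chromosome 4, 149552026 to 149569680), which completes NAD in the nucleus, was at 9.64, 11.5, 14.1, 13.2 and 14.7 CPM in the wild-type libraries. The knockout libraries held 13.5, 13.3, 13.4, 14.7 and 13.6 CPM. Its SD was 2.07 CPM in the wild-type and 0.58 in the knockout group. The log2 fold change was 0.12, interval -0.13 to 0.36 (adjusted p = 0.845 by edgeR), and 0.04 without wild-type library 1. Nmnat3 (ENSMUSG00000032456, chromosome 9, 98169483 to 98302816), the mitochondrial form, was highest in library 4 of each group, at 13.7 and 16.2 CPM, among 8.48 to 10.4 and 9.31 to 11.4 CPM. Its log2 fold change of 0.14, interval -0.22 to 0.50 (adjusted p = 0.872), became -0.01 without knockout library 4. The per-length log2 ratio of Nmnat3 to Nmnat1 was -1.68 ± 0.24 in the wild-type and -1.69 ± 0.26 in the knockout hearts (SD, n = 5).

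Slc25a51 (ENSMUSG00000045973, chromosome 4, 45395923 to 45409528), the mitochondrial NAD carrier, had a narrow interval. Wild-type libraries held 69.8, 54.6, 60.1, 55.3 and 59.6 CPM, and knockout libraries 61.9, 63.6, 62.5, 64.1 and 58.1 CPM. Wild-type library 1 was the highest here and all knockout libraries lay inside the wild-type range. The log2 fold change was 0.05, interval -0.11 to 0.21, or 0.923 to 1.16-fold (adjusted p = 0.911 by edgeR).

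Cd38 (ENSMUSG00000029084, chromosome 5, 44025875 to 44069717), a membrane glycohydrolase of leukocytes and endothelium, was high in a single library. Wild-type library 1 held 23.1 CPM and the other 4 held 14.3, 14.1, 14.5 and 12.6, while knockout libraries held 14.3, 17.6, 11.4, 14.0 and 17.1 CPM. The log2 fold change was -0.08, interval -0.45 to 0.30 (adjusted p = 0.945 by edgeR), and 0.11 without wild-type library 1. That library also had the highest macrophage marker sum, which ranged over the wild-type hearts from 136 to 596.8 CPM and over the knockout hearts from 145.4 to 181.8, with 7 of the 7 markers below 0. Wild-type library 1 was also highest for the sum of 6 lymphocyte markers, all too low to test. That sum was 10.65 CPM there and at most 5.105 CPM, in knockout library 2, among the other 9. On the TMM scale the sum of 5 endothelial markers was lowest in wild-type library 1, at 470.1 CPM against 477.1 to 591.7 in the other 9. The part of these sums in the Cd38 level of that library was not tested. The genes nearest to Cd38 in pattern over the 10 libraries were Arpc5 (0.322 SD), Elp2 (0.332) and Hdgfl3 (0.336).

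Parp1 (ENSMUSG00000026496, chromosome 1, 180396443 to 180431307), the DNA break sensor that spends NAD on poly(ADP-ribose) chains, was at 35.0, 39.5, 40.3, 46.3 and 44.8 CPM in the wild-type libraries. Knockout libraries held 38.6, 35.5, 45.6, 46.9 and 41.9 CPM. The ranges nearly coincided, and the fold difference was 1.01, interval 0.873 to 1.18 (adjusted p = 0.979 by edgeR). Sirt1 (ENSMUSG00000020063, chromosome 10, 63154581 to 63217483), the mainly nuclear deacetylase, was on the TMM scale the steadiest of the 10 in the wild-type group. It ranged from 22.6 to 24.2 CPM over the wild-type hearts and from 21.3 to 25.2 CPM over the knockout hearts. Its coefficient of variation was 2.72% and 7.79%, and its fold difference was 0.965, interval 0.871 to 1.07 (adjusted p = 0.891). Scaled by library totals alone, wild-type library 1 stood above the others of its group for Sirt1. The wild-type mean per kilobase of Sirt1 then moved from 4.17 to 4.32, by more than 1 SD. Sirt1 shares 12.5% of its exon bases with Herc4 on the other strand.

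Sirt3 (ENSMUSG00000025486, chromosome 7, 140443577 to 140462311), the main mitochondrial deacetylase, was at 10.7, 14.7, 12.0, 13.8 and 15.4 CPM in the wild-type libraries. Knockout libraries held 12.0, 14.3, 16.9, 17.9 and 11.1 CPM, with the 2 highest values of all in knockout libraries 3 and 4. The log2 fold change was 0.12, interval -0.21 to 0.44 (adjusted p = 0.886 by edgeR). It was 0.03 without knockout library 4 and 0.05 without wild-type library 1, and 0.21 without knockout library 5. The per-length log2 ratio of Sirt3 to Sirt1 was -1.47 ± 0.21 and -1.31 ± 0.32 (SD, n = 5), and these ranges overlapped. On the other strand Sirt3 shares 473 exon bases with Ric8a and 458 with Psmd13.

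On the TMM scale the genes shared their extreme libraries. Of the 10, 6 (Nmrk2, Nampt, Nmnat1, Nmnat3, Parp1 and Sirt3) were lowest in wild-type library 1, or 60% against 22.5% of all tested genes. That library had the highest TMM factor of all libraries, which lowers its CPM values. Scaled by library totals alone, Nmrk2 remained lowest in wild-type library 1, and Nampt, Nmnat1, Nmnat3, Parp1 and Sirt3 did not. The shared low in that library thus depended on the scaling. A set of 5 (Nmrk1, Nmrk2, Nmnat3, Parp1 and Sirt3) were highest in knockout library 4, or 50% against 16.6%. By library totals alone Nmrk2 and Nmnat3 remained highest there, and Nmrk1, Parp1 and Sirt3 did not. The shares of all genes by library totals were not computed. Cd38 and Slc25a51 were highest in wild-type library 1. The 2 libraries hold the lowest and highest cardiomyocyte marker sums given above, and whether those sums account for the shared extremes was not tested. Without both, 5 of the 10 genes were above 0 and their median log2 fold change was -0.01.

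**Figure D5:**
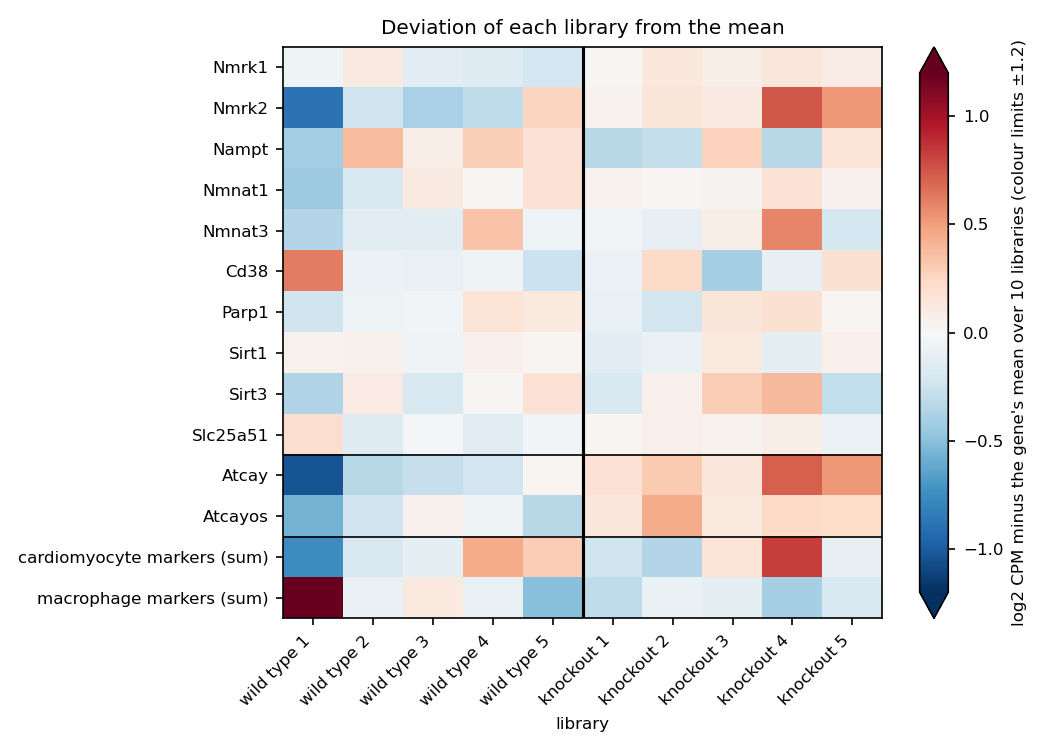
Each gene's log2 level in each library as a deviation from its mean over the 10 libraries, in colour (red above, blue below, limits of 1.2 either way), with rows below for Atcay, Atcayos and the summed cardiomyocyte and macrophage markers. On the TMM scale shown, wild-type library 1 is the lowest library for 6 genes and knockout library 4 the highest for 5. Cd38 is high in wild-type library 1.

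Beyond the 10, 53 further genes of NAD metabolism were listed by role, and 44 had enough counts to be tested. By edgeR 1 of the 44 rose in the knockout hearts and 0 fell, where 0.24% and 0.114% of all tested genes did. The 1 was Nnt (ENSMUSG00000025453, chromosome 13, 119470859 to 119566380), the mitochondrial transhydrogenase that passes electrons from NADH to NADP. Nnt ranged from 30.4 to 61.3 CPM over the wild-type hearts and from 250.5 to 319 CPM over the knockout hearts, a log2 fold change of 2.56 ± 0.17 (SE; adjusted p = 6.97e-06 by edgeR), and was called in all 21 alternatives. C57BL/6J mice are known to carry a deletion within Nnt, while related C57BL/6 substrains do not. The labels give the same background for both groups, and the substrain of the mice was not tested. A difference in substrain cannot be told apart from genotype.

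The other 43 did not pass. Most genes of synthesis from tryptophan were too low to test, with 2 of 9 tested, and the liver-enriched Tdo2, Kynu, Haao, Qprt and Acmsd held 60 counts or fewer over all 10 libraries. Among 7 tested genes of salvage and precursor supply 1 was above 0 and 6 below, and 4 were highest in wild-type library 1. Of 14 ADP-ribosyltransferases beside Parp1, 2 were above 0 and 12 below, with a median of -0.09, and 8 were highest in wild-type library 1. Of all tested genes 46.6% were above 0 and 27.8% were highest in that library. Over the 44 tested genes of the wider list these shares were 36.4% and 38.6%. More genes were above 0 than below in ADP-ribose removal (3 of 5), NADH repair and breakdown (3 of 4) and NADP (2 of 3). Directions by role without wild-type library 1 were not counted. Parp4, the transferase of the vault particle, was at 50.2 ± 5.01 and 58.5 ± 5.48 CPM, a log2 fold change of 0.22, interval 0.03 to 0.41 (adjusted p = 0.699 by edgeR). Parp10, a mono-ADP-ribosyltransferase, was at 9.26 ± 1.74 and 7.71 ± 0.39 CPM, a log2 fold change of -0.27 (adjusted p = 0.717), and -0.14 without wild-type library 1, which held 12.2 CPM. Of the 5 other sirtuins, 2 were above 0.

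For 3 other genes the wild-type mean rested on library 1 as well. Bst1, which lies 24546 bases from Cd38 and encodes a related cyclase, was at 9.69 CPM there and 1.70 to 2.92 in the other 4 wild-type libraries. Its log2 fold change was -1.14 (adjusted p = 0.699 by edgeR), and -0.50 without that library. Nnmt, which methylates nicotinamide for clearance, was at 8.15 CPM there and at most 1.87 in the others, with a log2 fold change of -1.17 (adjusted p = 0.734) and -0.15 without it. Pnp, a purine nucleoside phosphorylase that also splits nicotinamide riboside, was at 24.2 CPM there, with -0.49 (adjusted p = 0.747) and -0.16 without it.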

How the data were processed

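Hearts of 10 doxorubicin-treated mice were sequenced, 5 per genotype, and groups were taken from the genotype labels. The authors deposited expected counts for each gene. Alignment to GRCm39 used STAR 2.5.2, per the labels' protocols, and the submitters' processing notes name RSEM 1.3.0. RSEM divides reads that match several genes by estimation, so overlapping genes are uncertain. All values were whole numbers, so rounding changed none. The sources used here do not give the annotation release, strand setting or trimming. No label states a batch, so p-values measure only how these samples vary, which may be technical in part. The 20 within-group pairs of libraries each differed by more than sampling noise (chi-square per degree of freedom 8.93 to 161.9).

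Of the identifiers, 78168 were found in GENCODE M39. The main test was edgeR 4.0.16 (R 4.3.3) quasi-likelihood with TMM factors, a minimum count of 10, robust dispersions and Benjamini-Hochberg adjustment at 0.05 over 16700 genes. Standard errors are the log2 fold change over the square root of F. Totals of 21403189 to 40627138 counts limit low genes most. Alternatives were DESeq2 1.42.0, limma 3.58.1 voom with quality weights, 1 surrogate variable (sva 3.50.0), 3 scalings, 2 filters, mitochondrial genes left out, copies added (BLAST 2.17.0, 95% identity over 200 bases), each library left out, and wild-type library 1 and knockout library 4 left out together. The script was tested on simulated data.

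The members and lists were chosen with earlier results of these data known. Named are all members, called genes of the wider list and its 6 smallest p, and the 3 genes nearest in pattern (log2 of CPM plus 1) to Nmrk2 and to Cd38. Atcayos, the other genes within 50 kb of Nmrk2, Dbp and the low tryptophan-pathway genes were named after their values were seen.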

Additional observations from a re-analysis of the deposited data

Results flagged for a closer look

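In 36 groups of 5 libraries (18 genes in 2 genotypes), 6 had a library whose gap to the rest was large for the range of its group (Dixon's ratio above 0.71). Chance gives about 1 in 20 for independent groups. These groups share the same 10 libraries, and some genes were picked for a small p or for their values, so the count is no test. Of the 10 NAD genes, Nmnat1 was highest in knockout library 4, at 14.7 CPM against 13.3 to 13.6 in the other 4. Cd38 was highest in wild-type library 1, at 23.1 CPM against 12.6 to 14.5.

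The same wild-type library was highest for Bst1 (9.69 CPM against 1.70 to 2.92), Nnmt (8.15 against 0.772 to 1.87) and Pnp (24.2 against 8.52 to 11.6). Nnmt was lowest in knockout library 3, at 0.666 CPM against 1.26 to 1.44 in the other 4.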

How the results depend on the processing

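None of the 10 NAD genes was called in any of 21 alternatives, and 193 of 210 log2 fold changes kept their direction. The alternative with copies added raised the counts of Nmrk1 and Nmnat1 only, so it could hardly change the other members. For Nmnat1 it added 15699 counts of Zmynd8 to 4100 of its own, over a match of 200 bases. Over all genes 59 calls became 129 with DESeq2 and 91 with limma voom. Scaling by library totals moved the median of all genes from -0.0136 to -0.1163. The 17 values that turned sign, none called, belong to 5 genes. Cd38 was 0.137 with 1 surrogate variable, 0.102 with voom, 0.004 without knockout library 3, 0.112 without wild-type library 1 (leaving out 1 library gave -0.146 to 0.112), and 0.135 without that library and knockout library 4 together. Parp1 was -0.071 with library totals, -0.062 with 1 surrogate variable, -0.040 with voom, -0.078 without that pair, and -0.015, -0.027 and -0.030 without knockout library 3, knockout library 4 or wild-type library 1 (leaving out 1 library gave -0.030 to 0.072). Nmnat3 was -0.013 without knockout library 4 and -0.074 without the pair (leaving out 1 library gave -0.013 to 0.255). Sirt3 was -0.017 with voom and -0.049 without the pair (leaving out 1 library gave 0.026 to 0.205). Slc25a51 was -0.069 with library totals. The cause was not tested. Length moved 15 of 20 levels per kilobase by more than 1 SD. Scaling by library totals moved 1, that of Sirt1 in the wild-type group, and leaving out a library moved 0.

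No paired analysis was possible because the labels give no replicate numbers shared between the genotypes. The effect of counting by strand on Nmrk2 was not tested. Intervals cover the spread between libraries, and Nmrk1, with 75 to 177 counts per library, is limited most by depth.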
